A study of Mus musculus with 24 samples.

Results

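CD8 T cells from the spleens of mice that carried a transplanted B-cell lymphoma were compared with CD8 T cells from mice with no transplant, across all genes measured. Both groups had an intact Atm gene (genotype Atmwt/wt, written WT here) and the strain C57BL/6N. The comparison takes 6 of the 24 libraries of the series, 3 of the lymphoma group and 3 of the control group, and each was chosen by its label. The product of Atm is a kinase activated by DNA double-strand breaks. Lymphoma and control groups of 3 libraries each from CD8 cells of Atm-/- mice (KO) and from CD4 cells of the same WT mice, all C57BL/6N, are used only where the CD8 WT response is set beside another. Each WT lymphoma library held 1 mouse, whereas the WT controls were pools of 3, 2 and 2 mice. The KO lymphoma and KO control libraries were all pools of 2 mice. The labels do not state the lymphoma line, the time after transplantation, the age of the mice or how CD8 cells were separated from CD4 cells. RNA was counted as tags from the 3′ end of polyadenylated transcripts, so a tag count does not depend on transcript length.

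CD8 T cells recognize peptides on MHC class I molecules and, once activated, divide, secrete cytokines and kill target cells. Interferons are secreted proteins that signal through cell-surface receptors and JAK kinases. They switch on a broad set of genes that sense foreign nucleic acid, block viral replication and then damp the signal itself. T cells carry the receptors and respond to interferon made by other cells of the spleen.

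The libraries were examined first. Total counts were 8473559, 7786214 and 8738458 in the lymphoma libraries and 6874251, 8876146 and 8279907 in the controls, and 15263 to 16318 genes had a count. Levels are in CPM, scaled with factors from the trimmed mean of M values. Cd8a, a chain of the CD8 co-receptor, was at 423, 326 and 296 in lymphoma and at 521, 501 and 445 in control libraries, and Cd4 was at 5.77, 2.35 and 1.98 against 1.42, 4.06 and 7.07, so every library fitted its co-receptor label. Atm was at 191, 158 and 168 in lymphoma and 205, 198 and 185 in control libraries (-0.19 ± 0.24, adjusted p = 0.731). The summed level of the Y-linked genes Ddx3y, Eif2s3y and Uty was 4.81, 1.44 and 155 CPM in lymphoma libraries and 53.4, 184 and 113 CPM in controls, so Y-linked RNA was near the floor in 2 lymphoma libraries and in no control. Mouse identifiers of the third control begin with another letter than those of the other libraries, and the sources used here do not explain the letter. The labels do not say whether the mice were housed, transplanted or processed apart, so p-values measure the spread between these libraries.

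Of 12650 genes tested, 160 (1.26%) rose and 20 (0.158%) fell in CD8 cells of lymphoma mice. Together these are 180 genes (1.42%), called in a quasi-likelihood test (edgeR) over the 12 CD8 libraries of both genotypes, where the p adjusted by Benjamini-Hochberg had to be below 0.05. Fold changes are given as log2 values, lymphoma over control, with the standard error after ±, and the words rose and fell stand for genes that passed this test. The rises were larger than the falls, with a median of 1.67 against -0.71, while the median over all genes tested was -0.01. All 160 rises and all 20 falls separated the groups with no overlap between libraries, as did 15.9% (upward) and 13.9% (downward) of all genes tested. At an unadjusted p under 0.05, 2256 genes (17.8%) differed.

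The number of genes called depended on single libraries and on the fit, more than their direction did. Without lymphoma replicate 1 the call held 239 rises and 32 falls, without lymphoma 2 it held 40 and 0, and without lymphoma 3 it held 33 and 0. Without control 1 it held 55 rises and 2 falls, without control 2 it held 202 and 13, and without control 3 it held 22 and 1. Leaving out control 3 also leaves only mice of the same identifier letter in the WT groups compared, while KO libraries in that fit include the other letter. With the level of the Y-linked genes as a covariate 104 genes rose and 9 fell. Fitting only the 6 libraries compared called 423 rises and 172 falls. KO lymphoma replicate 1, which was high in erythroid, neutrophil and B cell RNA, entered the estimate of the spread, and 135 rises and 20 falls were called without it.

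**Figure D1:**
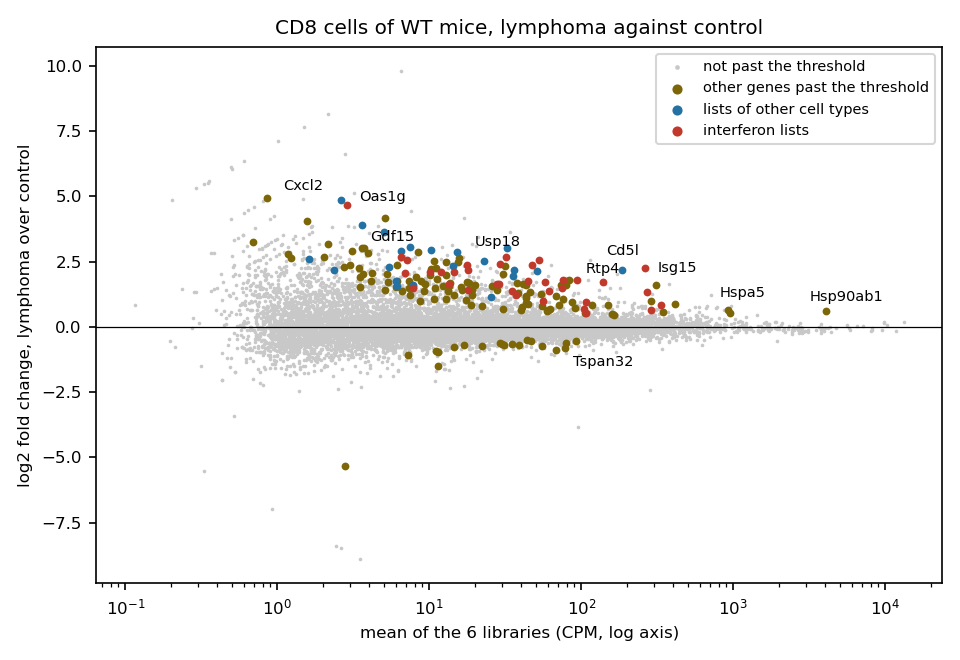
Log2 fold change of each of the 12650 genes in CD8 WT cells (vertical axis, lymphoma over control) against its mean CPM over the 6 libraries (horizontal log axis); coloured points passed an adjusted p of 0.05. Interferon-stimulated genes (red) and genes of other cell types (blue) that passed all lie above 0, and the falls lie closer to 0 than most rises.

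The clearest change was a rise of interferon-stimulated genes. Lists of such genes, 99 genes in all, had 96 members tested, of which 35 rose and none fell. That is 36.5% of the members tested, beside 1.26% of all genes, and 21.9% of all rises. Their median change was 0.83, and 78 of the 96 were higher in all 3 lymphoma libraries than in all 3 controls. Over all genes tested 15.9% were higher in this way. The summed platelet, monocyte, neutrophil and progenitor genes described further on were likewise higher in all 3 lymphoma libraries. Of the 10 genes with the smallest p in the whole comparison, 9 are on these lists. Without control 3 the 35 rises were 14, without lymphoma 3 they were 18, without control 1 they were 21, and without lymphoma 2 they were 22.

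Usp18, a protease that removes ISG15 from proteins and restrains signalling from the interferon receptor, had the smallest p of all genes. It was at 44.0, 48.5 and 54.6 CPM in the lymphoma libraries and at 8.52, 8.70 and 10.8 CPM in the controls, a change of 2.39 ± 0.18 (adjusted p = 0.000167). All 3 lymphoma libraries stood far above all 3 controls. Adar, which edits double-stranded RNA and so prevents its detection, was the other member of the 10 restraint genes that rose, at 128, 123.4 and 132 against 91.7, 82.5 and 88.6 CPM (0.54 ± 0.12, adjusted p = 0.0442). The median of the restraint genes was 0.52, and in each fit with a CD8 WT library left out 1 of the 2 passed, Usp18.

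The oligoadenylate synthetases make a short nucleotide chain that activates RNase L, which then degrades RNA. Of 8 family members 6 rose, with a median of 2.11. Oas1a was at 26.7, 28.1 and 33.8 CPM in lymphoma libraries, against 4.12, 6.85 and 5.91 CPM in controls (2.38 ± 0.20, adjusted p = 0.00033). Oasl1 was at 9.62, 12.1 and 14.6 against 2.41, 1.51 and 2.32 CPM, and Oasl2 at 17.8, 20.2 and 32.6 against 5.82, 6.38 and 4.05 CPM. Each of these genes stood well clear of its controls in all 3 lymphoma libraries. Oas3 (change 1.64 ± 0.25) and Oas2 (change 2.10 ± 0.40) rose as well. Oas1g had no count in controls 1 and 2 and 5 counts in control 3, and was at 1.80, 5.74 and 9.03 CPM in lymphoma libraries. It is close in sequence to Oas1a, so tags could be shared between them and the split of these 2 is uncertain. The family count was 2 without control 3, 3 without lymphoma 3, and 4 without lymphoma 2, control 1 or control 2.

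Of the 8 genes of the Ifit family and its relatives 4 rose, with a median of 1.95. Ifit proteins bind viral RNA that lacks host cap marks. Ifit3 was at 60.2, 83.2 and 95.5 CPM against 16.7, 19.8 and 9.73 CPM in controls (2.37 ± 0.29, adjusted p = 0.00387), and Ifit1 at 80.0, 96.0 and 88.8 against 25.8, 37.1 and 18.4 CPM (1.70 ± 0.26). Ifit3b, a near copy of Ifit3 whose tags may be split with it, changed by 2.68 ± 0.34. Cmpk2, a mitochondrial nucleotide kinase encoded beside Rsad2, was at 21.2, 32.9 and 34.6 against 6.96, 6.03 and 6.37 CPM (2.19 ± 0.22, adjusted p = 0.00071). Rsad2, which encodes the antiviral enzyme viperin, was at 164, 203 and 221 in lymphoma and 37.9, 27.2 and 34.5 CPM in control libraries, with no overlap. Its change of 2.56 ± 0.58 carried a wide error and missed the threshold (adjusted p = 0.0577).

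Among 34 interferon effectors of other families 16 rose and none fell. Rtp4, an interferon-induced protein that binds membrane receptors in transit, was at 130.5, 158 and 150.3 CPM in lymphoma libraries and at 47.7, 41.0 and 36.6 CPM in controls (1.81 ± 0.16, adjusted p = 0.000337). Ifi27l2a, a small mitochondrial protein, was at 179, 214 and 248 against 71.3, 67.6 and 57.3 CPM. Xaf1, which binds inhibitors of apoptosis, was at 68.5, 90.2 and 107 against 38, 31.3 and 32.9 CPM. Neither gene overlapped between the groups. Bst2, the tether that holds budding virions on the cell, was at 103, 117 and 107 against 40.9, 44.0 and 33.0 CPM, and Lgals3bp, a secreted glycoprotein, at 44.3, 53.4 and 59.0 against 20.4, 22.6 and 24.7 CPM. Bst2 also marks plasmacytoid dendritic cells, and it was the only one of 12 dendritic cell genes that rose. Ly6a, the surface protein known as Sca-1, changed by 1.65 ± 0.22 and Ifi44 by 2.69 ± 0.38. The ubiquitin-like modifier Isg15 was abundant, at 364, 456 and 484 against 109, 92.4 and 74.0 CPM (2.24 ± 0.31, adjusted p = 0.009). The count of 16 was 7 without control 3, 9 without lymphoma 3, and 10 without lymphoma 2 or control 1.

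Of the sensors and transcription factors of the response 5 of 21 rose, with a median of 0.73. Zbp1, a sensor of Z-form nucleic acid that can start necroptosis, stood at 50.6, 50 and 50.6 CPM in lymphoma libraries and 20.9, 22 and 14.7 CPM in controls (1.39 ± 0.16, adjusted p = 0.0016). Irf7, the factor that amplifies interferon production, was at 93.7, 105 and 155 against 39.3, 34.3 and 27.0 CPM. The cytosolic RNA sensors Dhx58 and Ifih1 changed by 1.51 ± 0.23 and 1.42 ± 0.22. The transcription factors Stat2, with a fold change of 0.73 ± 0.21 (adjusted p = 0.0996), and Irf9, with 0.54 ± 0.14 (adjusted p = 0.0662), did not pass. Without control 3 only 1 of the 5 passed, without lymphoma 3 it was 2, and without lymphoma 2 or control 1 it was 3.

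Of the 15 interferon-induced GTPases, which attack the vacuoles of intracellular microbes, 2 rose, and the median was 0.74. Iigp1 was at 66.1, 54.0 and 85.5 against 19.2, 25.8 and 15.3 CPM (1.77 ± 0.31, adjusted p = 0.0208) and Irgm2 at 134, 138 and 154 against 78.2, 74.3 and 68.0 CPM (0.95 ± 0.19, adjusted p = 0.0309). Neither passed without control 1, control 3 or lymphoma 3, and 1 passed without control 2 or lymphoma 2. MHC class I and peptide loading genes, which interferons are also known to raise, gave 1 rise among 22, beside 1.26% of all genes tested. Their median was 0.18, 20 of 22 were above 0, and 10 were higher in all 3 lymphoma libraries. Over all genes tested 48.4% were above 0 and 15.9% were higher in all 3. The class I gene that rose was H2-T24, a non-classical gene, at 13.0, 14.2 and 16.4 against 8.66, 6.5 and 5.44 CPM (1.09 ± 0.21). H2-T24 did not pass without lymphoma 2, lymphoma 3, control 2 or control 3. The classical gene H2-K1 was at 1940.5, 1731 and 1654 in lymphoma and 1665, 1668 and 1614 CPM in control libraries (0.11 ± 0.11, adjusted p = 0.649), and the groups overlapped.

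**Figure D2:**
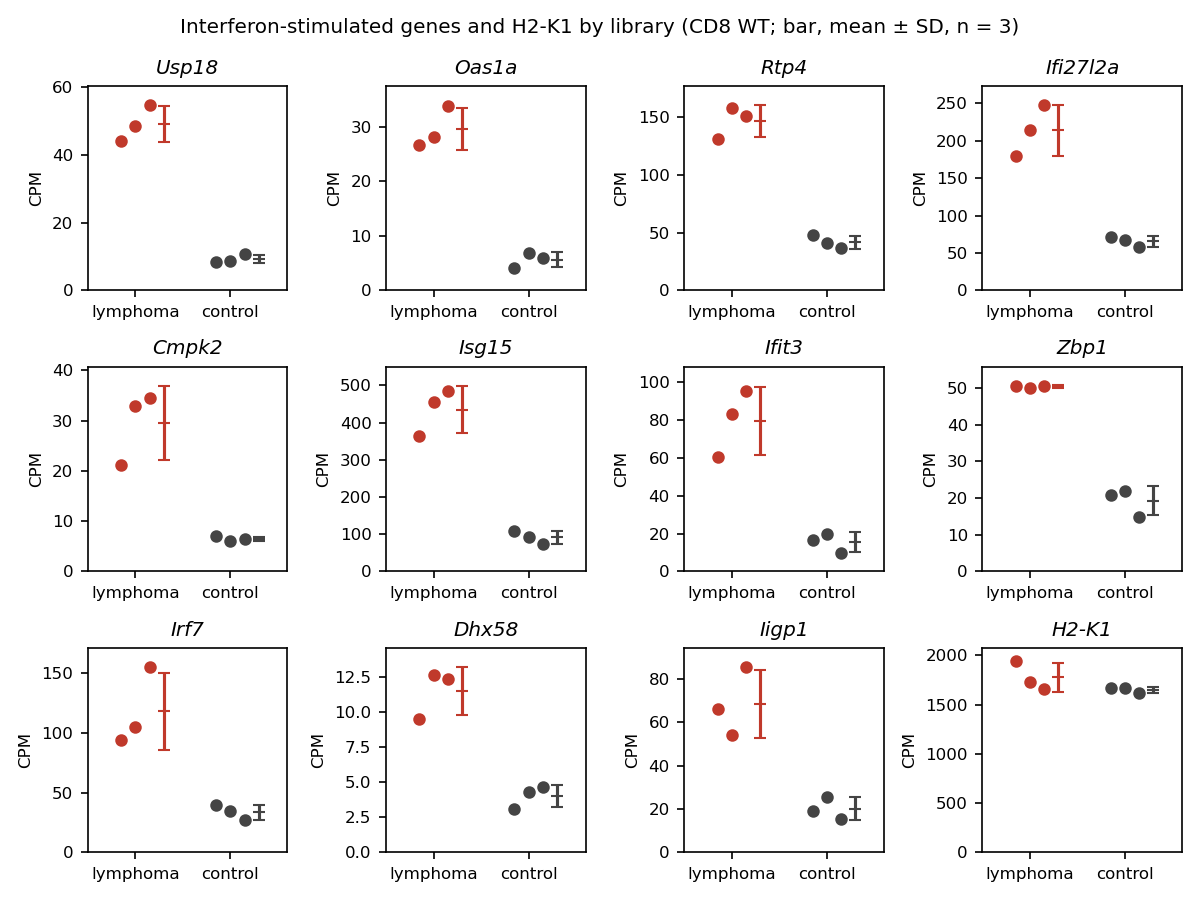
CPM (vertical axes, from 0) of 11 interferon-stimulated genes and H2-K1 in each of the 3 lymphoma (red) and 3 control (grey) CD8 WT libraries, with mean ± SD beside the points. In the 11 stimulated genes every lymphoma library lies above every control, whereas H2-K1 overlaps.

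IRF9, which carries type I interferon signals to DNA, and other factors of its family are known to bind repeats of GAAA in promoters, so the sequence around the start of these genes was read. Promoter windows from RefSeq (build GRCm38.p6, 250 bases before to 50 after each start) were searched on both strands for GAAA followed, after any 2 bases, by GAAA again. Parts of 5 windows are printed 5′ to 3′ on the strand of the gene, because these genes rose and hold the pattern. Capitals mark every base that lies in a match, and overlapping matches form 1 run. They are from Oas1a at chr5:120907526-120907570 (minus strand), Isg15 at chr4:156200850-156200921 (minus strand), Ifit3 at chr19:34583348-34583441 (plus strand), Ifit1 at chr19:34640760-34640838 (plus strand) and Irgm2 at chr11:58214888-58214947 (plus strand).
Oas1a: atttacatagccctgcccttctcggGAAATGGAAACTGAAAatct
Isg15: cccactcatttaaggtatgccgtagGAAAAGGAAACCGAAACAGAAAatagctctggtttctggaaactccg
Ifit3: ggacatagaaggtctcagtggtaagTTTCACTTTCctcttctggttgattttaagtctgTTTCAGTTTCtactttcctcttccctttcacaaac
Ifit1: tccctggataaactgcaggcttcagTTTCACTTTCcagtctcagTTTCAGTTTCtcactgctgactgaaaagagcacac
Irgm2: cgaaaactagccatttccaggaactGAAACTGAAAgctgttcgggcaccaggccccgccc

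In Oas1a the run starts 20 bases before the transcript start, in Isg15 it starts 78 bases before it and holds 3 overlapping matches, and in Irgm2 a single match starts 64 bases before it. Ifit3 and Ifit1 carry 2 separate matches each on the opposite strand, the first of them 156 and 104 bases before the start. The near copy Ifit3b holds the same letters as Ifit3 over the printed stretch. Of the 35 interferon genes that rose, 23 have a window in the table, and 12 of them (52.2%) hold the pattern. The 12 are Bst2, Ifih1, Ifit1, Ifit3, Ifit3b, Ifitm3, Irgm2, Isg15, Oas1a, Oas1g, Oas3 and Slfn5. Among interferon list members that were tested and did not rise, 26 of 50 (52.0%) hold it, so holding it did not separate listed genes that rose from those that did not. It occurs in 9 of 101 other genes that rose (8.91%), in 1 of 14 genes that fell (7.14%) and in 3.99% of the 27025 genes of the table. Cmpk2, Xaf1 and Irf7 rose and hold no match within their windows.

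Few genes of T cell states were called, and over all genes tested 1.26% rose and 0.158% fell. At such shares a list of this size would hold few calls or none, so low counts do not show unchanged states. Of 29 effector and cytotoxic genes none passed in either direction, with a median of -0.02. Il2rb, a chain of the interleukin-2 receptor, was at 583, 698 and 642 against 513, 564 and 568 CPM (0.23 ± 0.17, adjusted p = 0.54), and the chemokine Ccl5 was at 187, 229.2 and 224 against 102, 272 and 277 CPM. For Ccl5 2 controls stood above every lymphoma library and 1 stood below. Of 20 memory and migration genes none passed (median 0.14). Cd44, the hyaluronan receptor that is high on memory cells, was at 86.1, 112 and 136 in lymphoma and 45.4, 77.6 and 62.7 CPM in control libraries (0.85 ± 0.20, adjusted p = 0.0554), with no overlap.

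Among 16 genes of inhibitory receptors and exhaustion 1 rose. Batf, an AP-1 family factor needed for effector differentiation, was at 38.1, 39.9 and 35.6 CPM in lymphoma libraries and 22.3, 24.6 and 23.5 CPM in controls (0.69 ± 0.12, adjusted p = 0.0204). Pdcd1, which encodes PD-1, was low, at 1.92, 1.44 and 2.42 against 0.994, 2.32 and 3.59 CPM. Of 22 naive and quiescence genes 1 fell. Tspan32, a tetraspanin of blood cells, was at 61.0, 52.6 and 57.6 in lymphoma libraries and 104, 92.8 and 99.8 CPM in controls (-0.80 ± 0.14, adjusted p = 0.0196). Both calls ended without control 1, control 3, lymphoma 2 or lymphoma 3. Ccr7, the homing receptor of naive T cells, was at 248, 260.4 and 193 against 369.6, 276.4 and 302 CPM (-0.44 ± 0.18, adjusted p = 0.24).

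Of the 21 genes of the T cell receptor complex and its proximal signalling none passed. Their median was -0.38, 20 of 21 were below 0, and 15 were lower in all 3 lymphoma libraries than in all 3 controls. Of all 12650 genes tested 6127 (48.4%) were above 0, their median was -0.01, and 13.9% were lower in all 3. Summed over the list, the level was 5727, 5016 and 4431 CPM in lymphoma and 6913, 6609.9 and 6128 CPM in control libraries. Cd3e, a signalling chain of the receptor, was at 175, 136 and 128 against 257, 218 and 214 CPM (-0.65 ± 0.19, adjusted p = 0.0999). Ptprc, the phosphatase CD45, was at 794, 666 and 731 against 974, 993 and 961 CPM. In bulk libraries fewer cells of a type and less RNA per cell cannot be told apart. In the same libraries the medians of the platelet, monocyte, neutrophil and progenitor lists were above 0 and those of the B cell and natural killer lists below 0. These lists are described further on, and their part in the T cell receptor values was not tested.

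Some chaperone and stress genes rose. Of 19 cytosolic heat shock chaperones 4 rose, the median was 0.56, and 16 were higher in all 3 lymphoma libraries. Over all genes tested 1.26% rose and 15.9% were higher in all 3. Hsp90ab1, the constitutive HSP90 and an abundant message of these cells, was at 4756, 4974 and 5032 against 3573, 2878 and 3224 CPM (0.61 ± 0.12, adjusted p = 0.0258). Its co-chaperone Ahsa1 was at 405, 412 and 421 against 297, 262 and 279.3 CPM, and Hspa8, the constitutive HSP70, at 1069, 1100.5 and 1200.5 against 734, 728 and 885 CPM. These groups did not overlap, but each difference was under 1 on the log2 scale. Bag3, which guides HSP70 clients to autophagy, was low, at 10.2, 12 and 17.6 against 3.97, 4.18 and 7.07 CPM, and changed by 1.38 ± 0.25. The count of 4 was 0 without control 2, lymphoma 2 or lymphoma 3, and 1 without control 1 or control 3.

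Hspa5, the chaperone of the endoplasmic reticulum known as BiP, was the only riser of 19 genes of endoplasmic reticulum stress. It was at 1026, 1224 and 1132 CPM in lymphoma libraries and 744, 741 and 669 CPM in controls (0.65 ± 0.12, adjusted p = 0.0221). Of 24 antioxidant genes 2 rose, beside 1.26% of all genes tested, and the median of the list was 0.60. Srxn1, which repairs over-oxidized peroxiredoxins, was at 26.2, 23 and 23 against 5.68, 10.8 and 8.34 CPM (1.53 ± 0.22, adjusted p = 0.00796), and thioredoxin (Txn1) at 296, 401 and 444 against 180.0, 228.2 and 164 CPM. Of 21 glycolysis genes 1 rose, the hexokinase Hk2, at 18.9, 30.9 and 33.8 against 7.95, 10.6 and 12.4 CPM (1.43 ± 0.25). None of these 4 genes passed in all fits with a library left out: the antioxidant count was 0 without control 3, 1 without control 1, lymphoma 2 or lymphoma 3, and 4 without control 2. Hspa5 and Hk2 did not pass without control 1, control 3, lymphoma 2 or lymphoma 3.

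Immediate early genes respond to stimulation within minutes and also to handling of tissue. Their median was 0.80, 15 of 22 were higher in all 3 lymphoma libraries, and none passed. Over all genes tested 15.9% were higher in all 3. Junb, a subunit of AP-1, was at 922, 1297 and 781 in lymphoma and 526, 198 and 557 CPM in control libraries (1.23 ± 0.42, adjusted p = 0.168). Dusp2, a phosphatase that turns off ERK, was at 1319.8, 1396 and 976 against 872, 386 and 863 CPM. In both genes control 2 was the lowest library by far. Of 19 activation and costimulation genes none passed. Nfkbia, the inhibitor induced by NF-kappaB, was at 975, 1102 and 1116 against 666, 562 and 812 CPM (0.65 ± 0.15, adjusted p = 0.0552).

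Some cell cycle genes were called. All 34 S phase genes and all 32 mitosis genes had a positive fold change, with medians of 0.78 and 1.41, and 25 of each list were higher in all 3 lymphoma libraries. Over all genes tested 48.4% were positive and 15.9% were higher in all 3. In the S phase list 3 of 34 genes rose, beside 1.26% of all genes tested. E2f1, a factor that drives entry into S phase, was at 12.3, 17.1 and 26.1 against 6.10, 5.80 and 6.60 CPM (1.58 ± 0.29, adjusted p = 0.0219). The atypical repressor E2f8 was at 11.4, 19.6 and 24.1 against 2.98, 2.32 and 4.17 CPM, and Cdc45, part of the replicative helicase, at 5.17, 6.13 and 7.93 against 1.56, 1.74 and 2.32 CPM. In each of them lymphoma 1 was the lowest and lymphoma 3 the highest of the lymphoma libraries. The mitotic kinase Pbk was the only riser of the mitosis list, at 2.65, 4.44 and 4.63 against 0.710, 0.232 and 0.347 CPM. Top2a, the topoisomerase that untangles chromosomes, was at 83.5, 132 and 167 against 65.2, 48.7 and 43.3 CPM (1.28 ± 0.42, adjusted p = 0.151). Without lymphoma 1, 8 S phase and 2 mitosis genes rose, and without any of the other 5 libraries none did. The summed level of the mitosis list was 463, 658 and 853 CPM in lymphoma against 332, 283 and 277 CPM in control libraries. Its order over the WT lymphoma libraries was that of the blood progenitor, monocyte, neutrophil and natural killer sums described below, among others. In KO lymphoma libraries the orders differed, with mitosis sums of 1687, 581 and 1495 CPM and progenitor sums of 474, 344 and 1181 CPM. The part of progenitors or other cells in the mitosis values was not tested.

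Of 28 targets of p53, the factor that ATM activates after DNA breaks, 2 rose and 1 fell, with a median of 0.05. Over all genes tested 1.26% rose and 0.158% fell. In all 3 lymphoma libraries 9 of the 28 were higher and 3 were lower than in all 3 controls. Over all genes tested these shares were 15.9% and 13.9%. Gdf15, a secreted stress cytokine, was at 5.53, 8.22 and 5.51 against 0.284, 0.696 and 1.27 CPM (3.04 ± 0.47, adjusted p = 0.00978), and Cdkn1a, the inhibitor p21, at 2.28, 4.96 and 8.04 against 0.568, 1.39 and 0.927 CPM. Ccng1, cyclin G1, moved the other way, at 40.4, 39.5 and 34.5 against 52.7, 59.3 and 55.0 CPM (-0.55 ± 0.12, adjusted p = 0.0467), and did not pass in any fit with a library left out. The 2 rises were 1 without control 1, control 3 or lymphoma 3 and 0 without lymphoma 2. Of 38 cytosolic ribosomal protein genes none was called, and their median was -0.06.

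**Figure D3:**
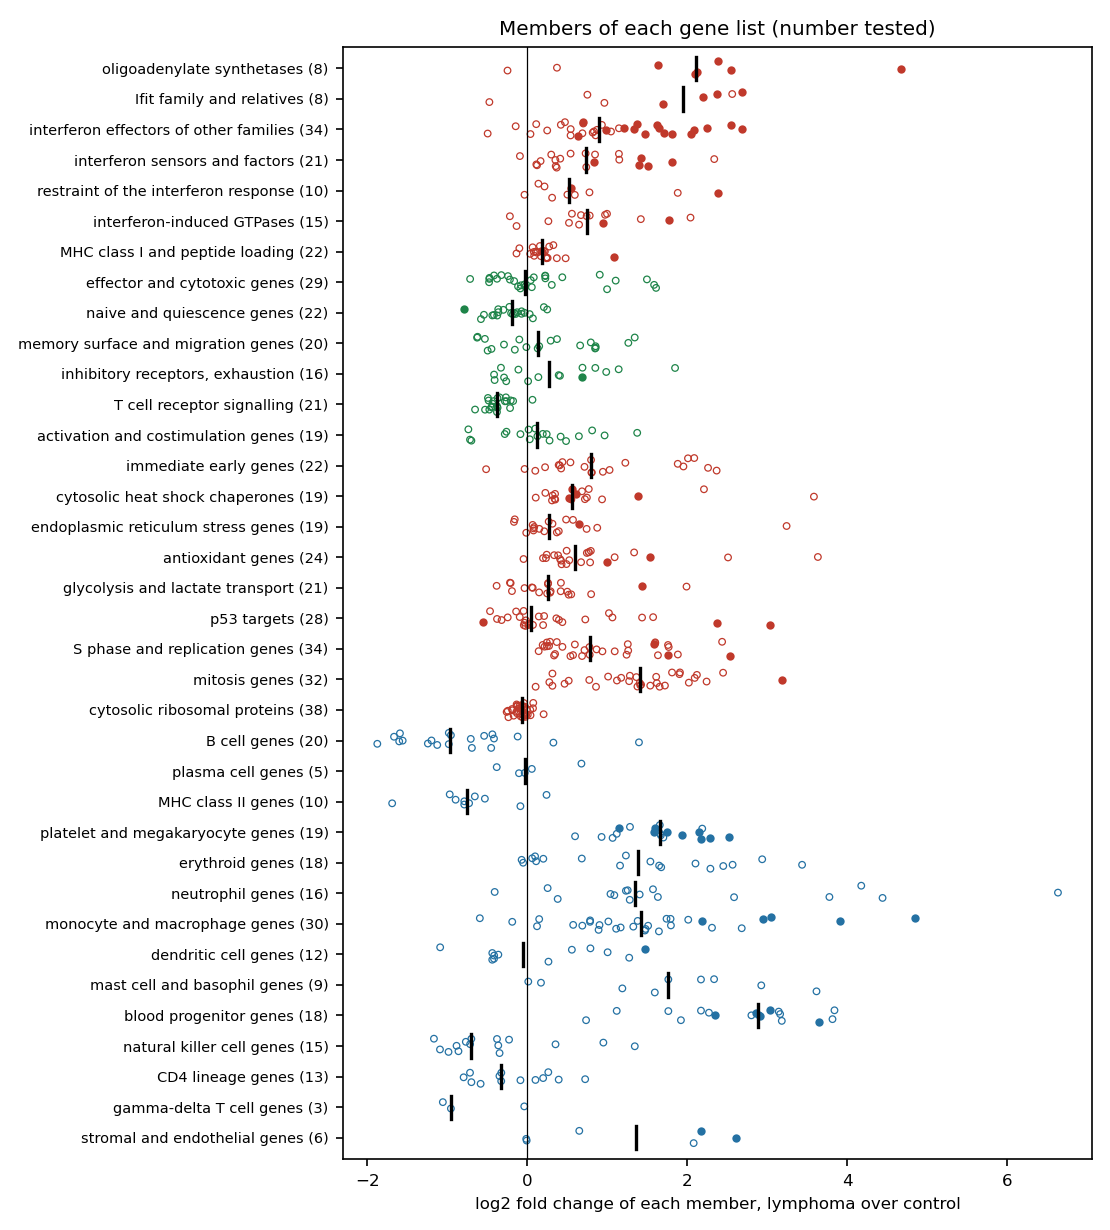
Log2 fold change (horizontal axis, lymphoma over control, CD8 WT) of each tested member of 36 gene lists, with the list median as a black bar; filled points passed an adjusted p of 0.05. Red lists are pathways, green lists T cell states and blue lists other cell types. The interferon lists have medians of 0.52 to 2.11, and the monocyte, platelet and progenitor lists have medians of 1.43, 1.66 and 2.88.

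Genes that mark other cell types also rose, with 22 of the 191 members tested on such lists called higher (11.5%), beside 1.26% of all genes. They make up 13.8% of the 160 rises, and Bst2 is among them. This share leaves out rises on none of these lists, such as the myeloid receptor Cd300e described below. The 22 calls were 2 without control 3, 4 without lymphoma 2, 5 without lymphoma 3, 9 without control 1 and 34 without lymphoma 1. Platelet and megakaryocyte genes stood out, with 9 of 19 higher, a median of 1.66 and a summed level of 453, 557 and 541 CPM in lymphoma libraries against 101, 218 and 171 CPM in controls. Treml1, a receptor of platelet granules, was at 51.7, 67.7 and 57.9 against 8.52, 19.3 and 11.4 CPM (2.17 ± 0.25, adjusted p = 0.00174). Itga2b, a chain of the platelet fibrinogen receptor, was at 65.8, 92.2 and 92.4 in lymphoma and 15.6, 21.6 and 19.2 CPM in control libraries (2.15 ± 0.31). The collagen receptor Gp6 changed by 1.58 ± 0.28, Gp9 of the von Willebrand factor receptor by 2.29 ± 0.39, and Cavin2 by 2.52 ± 0.41. Of these genes Treml1 passed in all 6 fits with a library left out. The count of 9 was 1 without control 3, 2 without lymphoma 2, and 3 without control 1 or lymphoma 3.

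Monocyte and macrophage genes had 5 of 30 higher, and their summed level was 2031, 2416 and 2813 CPM in lymphoma and 368, 1839.6 and 1123 CPM in control libraries. Control 1 was the lowest of all. Cd5l, a protein secreted by splenic macrophages, was at 236, 352 and 328 against 35.2, 108 and 58.0 CPM (2.18 ± 0.34, adjusted p = 0.0149). Cxcl2, a chemokine for neutrophils, had the largest rise under the rule for named genes, which asks for 5 CPM in the higher group alone, at 2.53, 5.35 and 7.49 against 0.142, 0 and 0.347 CPM (4.84 ± 1.02), with 1, 0 and 3 counts in the controls. The pattern receptor Clec4e (change 3.90 ± 0.83), the activating receptor Pira2 (change 3.05 ± 0.59) and Wfdc17 (change 2.95 ± 0.59) were the others. The count of 5 was 0 without control 3, lymphoma 2 or lymphoma 3, and 10 without control 2.

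Blood progenitor genes had 5 of 18 higher and the highest list median, 2.88. Their sum was 278, 534 and 661 CPM in lymphoma libraries and 155, 170.2 and 178 CPM in controls, with lymphoma 1 closest to the controls. Adgrg1, an adhesion receptor of stem cells and also of cytotoxic cells, was at 27.8, 68.1 and 77.7 against 5.11, 8.47 and 7.41 CPM (3.04 ± 0.63). The factor Tal1, which sets up the blood lineage, was at 13.2, 27.8 and 38.8 against 2.13, 5.69 and 3.01 CPM, and the growth factor Angpt1 at 12.6, 27.3 and 32.4 against 3.55, 5.69 and 4.87 CPM. Samd14 and the cation transporter Slc22a3 changed by 2.91 ± 0.46 and 3.65 ± 0.76. The count of 5 was 0 without control 3, 1 without control 1, lymphoma 2 or lymphoma 3, 3 without control 2, and 10 without lymphoma 1.

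None of the neutrophil, B cell or natural killer genes passed. Over all genes tested 1.26% rose and 0.158% fell, so lists of this size would hold few calls or none. None of 16 neutrophil genes passed, but 15 were above 0, beside 48.4% of all genes tested, and their median was 1.34. Their sum was 254.8, 258 and 325 CPM in lymphoma against 65.9, 92.4 and 204 CPM in control libraries, with no overlap. None of 9 mast cell and basophil genes passed, but all 9 were above 0, with a median of 1.76. Erythroid genes summed to 3028, 1386 and 992 CPM against 672, 446 and 3889 CPM, with the third control highest. B cell genes, the lineage of the transplanted lymphoma, were not called: none of 20 passed, the median was -0.97 and the sums were 384, 223.1 and 220.3 CPM in lymphoma and 192, 286 and 768 CPM in control libraries. No defining marker examined was at 0 in every library. Natural killer genes summed to 453, 499 and 572 CPM in lymphoma and 409, 761 and 708 CPM in control libraries, with none of 15 called. In the stromal and endothelial list 2 of 6 rose, the endothelial receptor Kdr (2.61 ± 0.48) and the matrix protein Sparc (2.17 ± 0.48), both under 6 CPM in every library. Neither passed without control 1, control 3, lymphoma 2 or lymphoma 3, and 1 passed without control 2.

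A score over the platelet, neutrophil, monocyte and progenitor lists (mean log2 CPM) was 3.58, 4.08 and 4.31 in the lymphoma libraries and 1.26, 2.60 and 2.55 in the controls. It did not overlap between the groups, so what it carries and the lymphoma itself cannot be told apart with these libraries. With that score as a covariate no gene passed. In that fit Usp18 had a fold change of 2.23 (adjusted p = 0.468). With the T cell receptor list as a score instead, a covariate chosen after the data were seen, 59 genes rose and 2 fell. With the T cell score 32 interferon list members rose and 4 members of the lists of other cell types did. The T cell score was 7.75, 7.522 and 7.325 in lymphoma and 7.957, 7.893 and 7.836 in control libraries. It did not overlap between the groups either, so it too cannot be told apart from the lymphoma itself. These counts therefore do not assign the rises to a cell type.

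**Figure D4:**
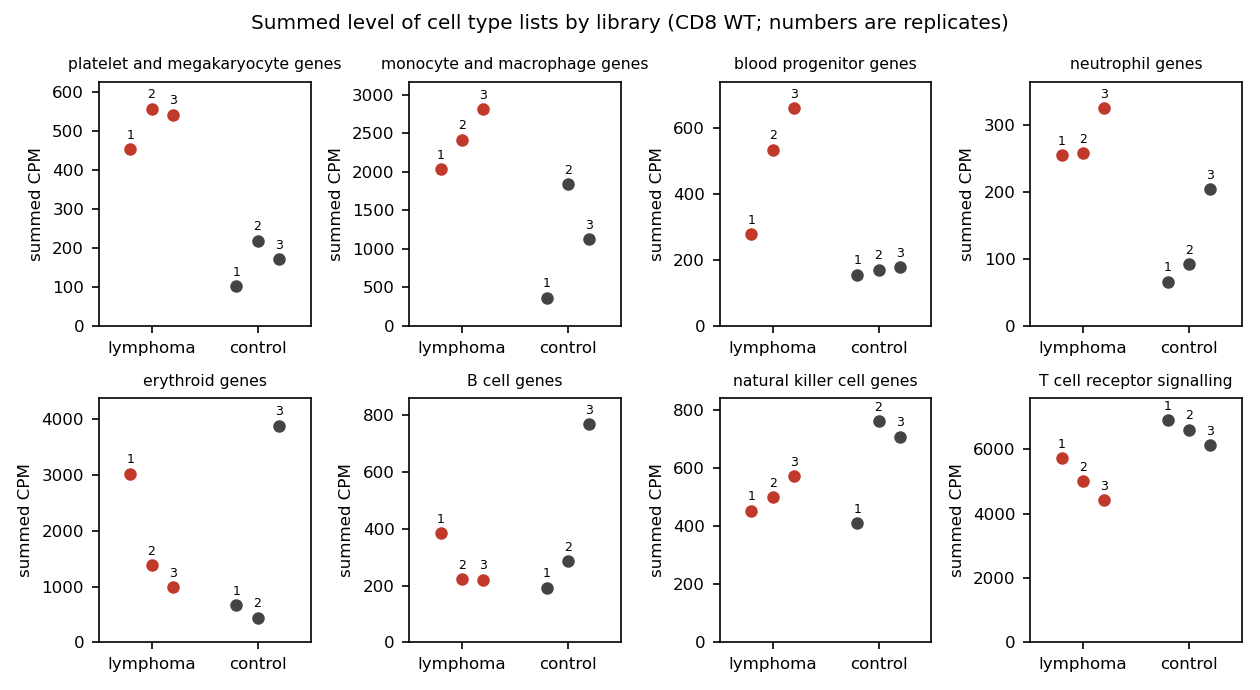
Summed CPM (vertical axes, from 0) of 7 cell type lists and the T cell receptor list in each CD8 WT library, lymphoma in red left of control in grey, with the replicate number above each point. Platelet, monocyte, progenitor and neutrophil sums are higher in all 3 lymphoma libraries. B cell, erythroid and natural killer sums overlap, and the T cell receptor sum is lower in all 3.

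Many of the changed genes belong to no list: 88 of the rises and 18 of the falls. Clic4, a chloride channel protein, was the only gene outside the interferon lists among the 10 with the smallest p, at 62.5, 67.7 and 66.6 against 22.3, 31.9 and 24.3 CPM (1.32 ± 0.15, adjusted p = 0.0016). Ly6i, a surface protein close in sequence to other Ly6 genes that could share its tags, was at 3.13, 6.78 and 19.2 against 0.284, 0.812 and 0.463 CPM. The myeloid receptor Cd300e was at 10.3, 14.4 and 20.3 against 0.710, 3.37 and 1.85 CPM, Gatm, the first enzyme of creatine synthesis, at 4.33, 8.61 and 8.04 against 0.142, 1.97 and 0.695 CPM, and Klhl23 at 3.37, 4.83 and 8.15 against 1.14, 0.348 and 0.695 CPM. Plac8, a small protein of lymphoid and myeloid cells, was at 298, 412 and 698 against 149.9, 159 and 157 CPM (1.6 ± 0.24), and Nampt, the enzyme that recycles nicotinamide into NAD, at 109.7, 113 and 119 against 55.2, 68.7 and 52.2 CPM (0.95 ± 0.14).

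The falls were small, and whether they share functions was not tested. No gene fell without lymphoma 2 or lymphoma 3, 1 fell without control 3, and 2 fell without control 1. Polr3a, the largest subunit of RNA polymerase III, was at 7.22, 7.44 and 8.37 CPM in lymphoma libraries and at 14.3, 14.6 and 14.2 CPM in controls (-0.91 ± 0.16, adjusted p = 0.0208). Cirbp, an RNA-binding protein induced by cold, was at 45.1, 41.1 and 36.8 against 73.5, 71.6 and 60.1 CPM (-0.74 ± 0.15). Lpar6, a receptor for lysophosphatidic acid, was at 57.0, 45.1 and 41.9 against 80.9, 111 and 72.5 CPM, and G0s2, an inhibitor of the main triglyceride lipase, at 12, 9.65 and 10.5 against 18.3, 20.2 and 16.6 CPM. Both groups are tight in Polr3a, whereas the controls spread more in Lpar6. Dcaf17, a receptor subunit of a ubiquitin ligase, had the smallest p of the falls, at 29.2, 25.7 and 26.4 against 40.3, 44.9 and 42.7 CPM (-0.65 ± 0.10, adjusted p = 0.0112). Cln3, a lysosomal membrane protein, changed by -0.69 ± 0.13, the kinase Tnk2 by -0.65 ± 0.14, the sugar transporter Slc50a1 by -0.63 ± 0.13 and the factor Rfx1 by -0.60 ± 0.11. The remaining falls under the rule were Ifitm10, Qrfp, Amn1, Pcmtd2 and Oraov1, with changes from -1.09 to -0.68.

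The same response was then set beside that of CD8 cells from KO mice. In KO cells 176 genes (1.39%) rose and 100 (0.791%) fell with lymphoma. Of the 160 WT rises 159 were positive in KO cells and 62 were called there, which is 38.8% of the WT and 35.2% of the KO rises. All 20 WT falls were negative in KO cells and 6 were called. The test of the difference between the responses passed for none of the 12650 genes with edgeR (0%), and 442 genes (3.49%) had an unadjusted p under 0.05. DESeq2 called 1 and limma voom none.

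The interferon lists had 24 members called in KO and 35 in WT cells, with medians of 0.44 in KO and 0.83 in WT. For Usp18 the KO response was 0.94 ± 0.17, against 2.39 ± 0.18 in WT. The difference (KO minus WT) was -1.45 ± 0.24, and its adjusted p of 0.743 was the smallest of all genes. Usp18 was at 41.8, 53.7 and 35.9 CPM in KO lymphoma and at 25.4, 23.6 and 19.8 CPM in KO control libraries. Its KO controls thus lay above the WT controls, at 8.52, 8.70 and 10.8 CPM. For Oas1a the KO response was 1.22 ± 0.19 against 2.38 ± 0.20 in WT, and for Oasl2 it was 2.13 ± 0.30 against 2.12 ± 0.30. Oas1a was at 19.4, 17.8 and 14.2 CPM in KO and 4.12, 6.85 and 5.91 CPM in WT controls. For Oasl2 the KO and WT controls overlapped. How KO and WT controls differ was not tested here. The chaperone list had a median of 0.16 in KO and 0.56 in WT cells, and Dnajb1, an HSP40 partner of HSP70, had a fold change of -0.32 ± 0.17 in KO and 0.72 ± 0.17 in WT cells. Also among the 5 genes with the smallest p for the difference were Nacc2, a transcriptional repressor (-0.45 ± 0.17 in KO, 0.63 ± 0.17 in WT), and Serinc5, a membrane protein that restricts retroviruses (1.61 ± 0.32 in KO, -0.27 ± 0.31 in WT). For Cirbp the fold change was -0.01 ± 0.16 in KO and -0.74 ± 0.15 in WT cells, and for Polr3a it was -0.21 ± 0.16 in KO and -0.91 ± 0.16 in WT cells. None of these differences passed, which does not show that the responses are alike.

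CD4 cells were sampled from the same mice. In CD4 WT cells 207 of 12808 genes (1.62%) rose and 9 (0.0703%) fell with lymphoma. Of the 159 CD8 rises that were tested in CD4 cells 80 were called there, which is 50.3% of these and 39.8% of the 201 CD4 rises tested in CD8 cells. The difference between the CD8 and CD4 responses passed for none of 13232 genes with edgeR (0%), with 180 (1.36%) at an unadjusted p under 0.05, 1 gene with DESeq2 and none with limma voom. In each cell type 35 interferon members were called, with medians of 0.83 in CD8 and 0.75 in CD4 cells. Usp18 changed by 2.39 ± 0.18 in CD8 and 1.91 ± 0.27 in CD4 cells, and Cmpk2 by 2.19 ± 0.22 in CD8 and 2.48 ± 0.29 in CD4 cells. The platelet list had medians of 1.66 in CD8 and 1.81 in CD4 cells, and the progenitor list 2.88 and 2.93.

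Among genes that were also in the CD8 fit, those with the smallest p for this difference were Ehd1, Itgb3, Gria3, Izumo1r and Eng. Ehd1, which returns receptors from endosomes to the surface, had a fold change of 0.39 ± 0.11 in CD8 and 0.98 ± 0.12 in CD4 cells. Itgb3, the partner of Itga2b in the fibrinogen receptor, was at 28.0, 40.6 and 37.0 against 15.5, 15 and 17.4 CPM in CD8 cells, with a fold change of 1.14 ± 0.22 there and of -0.06 ± 0.17 in CD4 cells. Gria3, a glutamate receptor subunit, had a fold change of 0.48 ± 0.24 in CD8 and 2.90 ± 0.61 in CD4 cells. Izumo1r, the folate receptor 4 of regulatory T cells, stood at -0.58 ± 0.15 in CD8 and 0.16 ± 0.17 in CD4 cells. For Eng, a co-receptor for TGF-beta, it was 0.10 ± 0.26 in CD8 and 2.38 ± 0.55 in CD4 cells. For none of these 5 did the difference pass the adjusted threshold.

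**Figure D5:**
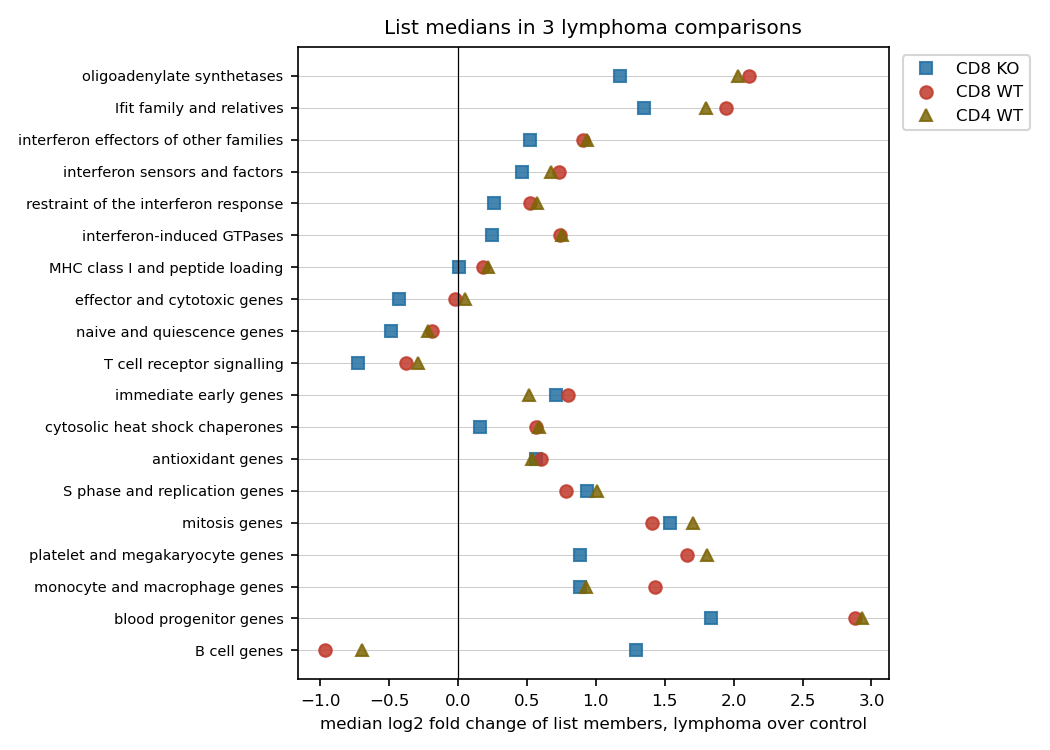
Median log2 fold change (horizontal axis, lymphoma over control) of 19 gene lists in CD8 KO (blue squares), CD8 WT (red circles) and CD4 WT cells (brown triangles). The WT medians of both cell types lie close together for the interferon lists, and the KO medians of those lists lie lower. Of the 3 B cell medians the KO one is above 0. Summed KO B cell genes were at 2159, 532 and 263 CPM in lymphoma and 447, 393 and 504 CPM in control libraries. KO lymphoma replicate 1 was the highest of these by far. Differences between list medians were not tested.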

How the data were processed

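The authors deposited 1 table of estimated counts by gene symbol and library, and name no normalization. Salmon 0.11.3 is named without a step, per the submitters' processing notes. They also list GRCh38, a human build, without a role for these mouse samples, and no position here comes from it. Per the labels' protocols, splenic T cells were isolated with an EasySep kit, RNA with RNeasy, and libraries with the Lexogen QuantSeq 3′ FWD kit. Whether counting used the strand is not stated in them.

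Of 34113 genes, 2 with a letter in a numeric cell were dropped, and values were rounded to whole counts. The 12 CD8 libraries were fitted in edgeR 4.0.16 (filterByExpr with minimum count 10 and minimum total 15, trimmed mean of M values, robust quasi-likelihood test, 8 residual degrees of freedom), which left 12650 genes. The CD4 fit held 12808 genes, and the difference between CD8 and CD4 responses used all 24 libraries (13232 genes). p-values were adjusted by the Benjamini-Hochberg method over all genes tested. The SE is the fold change divided by the root of the F statistic. The precision of each value is limited by 3 libraries per group and by counting error at these depths.

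Genes were named by rule: checks of the labels, the 15 largest rises and 15 largest falls that passed, did not overlap and had a mean of 5 CPM or more where they were higher, the 10 smallest p, up to 6 members per list, and up to 5 genes per difference of responses. Some genes that the rule names are not reported here. Cd3e, Cd44, Ccr7, Pdcd1, Top2a, Isg15, Rsad2, Stat2, Irf9, H2-K1, Plac8 and Nampt were added after their values were seen. The comparison, its 38 gene lists and the rules were chosen with earlier results of these data known. The code was tested on simulated data. Promoter sequences are RefSeq windows on GRCm38.p6. The alternatives were other normalizations, filters, tests (DESeq2 1.42.0, limma 3.58.1 voom), sets of libraries and covariates.

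CD8 and CD4 libraries with the same replicate number come from the same mouse pools, per the labels. Their deviations from the group means correlated at 0.350, -0.0181 and 0.355 in lymphoma and at 0.341, 0.340 and 0.369 in control mice. With the mouse pool as a block, no gene passed for the difference between the CD8 and CD4 responses.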

Additional observations from a re-analysis of the deposited data

How the results depend on the processing

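Of the 160 rises and 20 falls, other fits gave other numbers. The DESeq2 test called 686 rises and 113 falls, limma voom with sample weights 554 and 267, the 6 libraries compared alone 423 and 172, and all 24 libraries in a single fit 317 and 59. With the Y-linked score as a covariate there were 104 rises and 9 falls, with the T cell score 59 and 2, and with the blood cell score 0 and 0. Numbers that stayed within 1.5 times were 163 and 21 with DESeq2 size factors, 127 and 21 with upper-quartile normalization, 190 and 18 with no filter, 184 and 24 with a stricter filter, and 126 and 23 with the share of B identifiers. With each CD8 WT library left out in turn the rises ran from 22 to 239 and the falls from 0 to 32, and the largest losses came without control 3, lymphoma 3 and lymphoma 2. The replicate number does not pair these libraries: same-number deviations correlated at 0.0839, -0.0206 and 0.0985 within a range of -0.192 to 0.142 over all pairs, and not every library correlated best with its own number. The fit with the replicate number as a block called 126 rises and 14 falls.

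Differences between responses stayed at 0 genes except with the DESeq2 test, where 1 passed for KO minus WT and 1 for CD8 minus CD4. With libraries left out, KO minus WT ran from 0 to 1, the 1 without control 2. Of 81 named genes that passed, 16 passed in all 6 fits with a CD8 WT library left out, among them Usp18, Rtp4, Cmpk2, Zbp1, Ifit3, Ly6a and Treml1. None of the 81 changed sign except, with the blood cell score as a covariate, Clec4e (-1.32) and Wfdc17 (-0.37). The causes of these moves were not tested. Genes at a few counts in the controls, such as Cxcl2 and Oas1g, have fold changes limited by depth.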
